A study of Mus musculus with 12 samples.

Results

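The proteasome genes of the mouse were followed through an allergic skin reaction, as whole-ear transcript levels on 12 one-colour Affymetrix Mouse430_2 arrays. Members were all genes with a probe set annotated to 1 symbol that begins with Psma, Psmb, Psmc, Psmd or Psme and continues with a number. The rule found 44 genes of the 18194 on the array, read by 91 of 34958 single-symbol probe sets, and 42 of the 44 passed a filter on low values (an intensity of at least 16 on at least 3 arrays). Of these 44, 31 encode constitutive subunits of the core particle or its regulator and all 31 passed. The immune class held 4 genes (Psmb8, Psmb9, Psmb10 and Psme1), and all 4 passed. For Psme2 the array annotation used here pairs the probe set with a second symbol, Psme2b, so no value is given. Psma8 and Psmb11, the germline and thymic variants, were below 16 on every array and were not tested. Psmc3ip and Psme3ip1 match the rule by name alone, and encode partners named after a subunit rather than subunits.

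The ears came from 3 wild-type females, labelled C57BL/6J and Cnr1+/+/Cnr2+/+, and 3 females labelled Cnr1-/-/Cnr2-/-, which carry null alleles of both cannabinoid receptors and are called knockout here after their labels. All 6 mice were 8 to 10 weeks old, and all had the contact allergen dinitrofluorobenzene (DNFB; 50 µl at 0.2%) painted on the shaved belly on 2 successive days. On day 5 the right ear received DNFB (10 µl at 0.3%) and the left received nothing, and both were collected 48 h after a challenge that the labels count as the second, while the protocol describes only that on day 5, so the number of challenges is not settled. It follows that each group holds 3 ears and every untreated ear is from a sensitized mouse. The labels give no strain background for the knockout line. Sensitized T cells drive such a reaction, and the untreated ears share the mouse's circulation with the treated ones.

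Array medians lay between 24.7 and 30.1, and 57.7% to 61.5% of probe sets reached an intensity of 16. Markers of ear tissue (the keratins Krt5 and Krt14, the collagen gene Col1a1 and the cartilage gene Acan) were all measured above that level. The probe set of Cnr1 lay near or below it in all groups. That of Cnr2 lay near it in control ears and above it in knockout DNFB ears (28.6 to 39.4). Cnr1 had geometric means of 9.85 and 11.6 in wild-type control and DNFB ears and of 11.0 and 8.23 in knockout ears, and Cnr2 had 12.0 and 23.2 in wild type and 12.9 and 32.4 in knockout. Neither differed between genotypes past the threshold (in DNFB ears, log2 difference knockout minus wild type -0.50, adjusted p 0.808, for Cnr1 and 0.48, adjusted p 0.721, for Cnr2). After DNFB, Cnr2 passed in knockout (limma, log2 fold change 1.33, adjusted p 0.0182) and not in wild type (0.95, adjusted p 0.0721). Whether these probe sets lie in the deleted parts was not analysed here, so they check nothing, and every genotype below is that of the label. The arrays were sorted here into 3 washing runs, inferred from gaps over 30 minutes between the hybridization times of day in the instrument records. Run 1 contained wild-type DNFB ear 1 with all wild-type controls. Run 2 contained the other wild-type DNFB ears with knockout control ears 1 and 2, and run 3 contained every knockout DNFB ear with knockout control ear 3.

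The proteasome degrades ubiquitin-tagged proteins in a barrel of stacked rings. Alpha subunits form the outer rings and gate the entrance, beta subunits form the inner rings and carry the active sites, and a regulator of ATPases and non-ATPases binds, unfolds and feeds in the substrate. Interferon gamma is known to induce Psmb8, Psmb9 and Psmb10, which take the places of Psmb5, Psmb6 and Psmb7 in newly built particles, and Psme1 and Psme2, the subunits of an activator cap. The immunoproteasome built this way is known for supplying peptides to MHC class I molecules.

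The promoters of the immune genes and of the constitutive catalytic genes with an entry in the sequence table are shown because the immune catalytic genes are read against these constitutive counterparts below. Each line gives the 250 bases before the annotated start, 5′ to 3′ on the strand of the gene, from RefSeq (GRCm38.p6), for Psmb8 at chr17:34197945-34198194 (plus strand), Psmb9 at chr17:34187331-34187580 (minus), Psmb10 at chr8:105938393-105938642 (minus), Psme1 at chr14:55578244-55578493 (plus), Psmb5 at chr14:54617996-54618245 (minus) and Psmb6 at chr11:70525107-70525356 (plus). Capitals mark a match to TTCNNNGAA, the gamma-activated site bound by interferon-activated STAT dimers, or to TGACNNNGC, the core of the antioxidant response element.
Psmb8: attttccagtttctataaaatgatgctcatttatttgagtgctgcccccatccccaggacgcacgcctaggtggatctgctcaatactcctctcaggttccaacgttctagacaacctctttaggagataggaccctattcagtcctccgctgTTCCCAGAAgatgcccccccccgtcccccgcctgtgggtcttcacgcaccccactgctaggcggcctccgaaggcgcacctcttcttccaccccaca
Psmb9: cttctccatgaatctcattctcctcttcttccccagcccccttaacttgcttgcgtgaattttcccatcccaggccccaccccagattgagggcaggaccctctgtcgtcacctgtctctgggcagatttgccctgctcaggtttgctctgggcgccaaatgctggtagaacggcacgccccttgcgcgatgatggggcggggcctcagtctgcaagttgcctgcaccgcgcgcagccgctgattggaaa
Psmb10: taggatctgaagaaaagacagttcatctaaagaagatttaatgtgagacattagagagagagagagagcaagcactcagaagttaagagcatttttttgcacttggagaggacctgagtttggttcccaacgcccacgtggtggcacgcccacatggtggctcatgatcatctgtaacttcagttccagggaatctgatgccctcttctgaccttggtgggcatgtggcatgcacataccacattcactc
Psme1: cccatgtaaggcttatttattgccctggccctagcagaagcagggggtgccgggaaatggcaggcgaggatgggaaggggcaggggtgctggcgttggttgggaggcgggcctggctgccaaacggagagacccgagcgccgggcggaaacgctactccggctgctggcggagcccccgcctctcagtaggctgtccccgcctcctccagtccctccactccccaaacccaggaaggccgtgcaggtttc
Psmb5: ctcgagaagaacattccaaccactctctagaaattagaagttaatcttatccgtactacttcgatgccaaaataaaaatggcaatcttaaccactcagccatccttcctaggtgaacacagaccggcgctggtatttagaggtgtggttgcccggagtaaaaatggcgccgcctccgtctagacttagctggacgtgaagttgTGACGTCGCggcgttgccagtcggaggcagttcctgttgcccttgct
Psmb6: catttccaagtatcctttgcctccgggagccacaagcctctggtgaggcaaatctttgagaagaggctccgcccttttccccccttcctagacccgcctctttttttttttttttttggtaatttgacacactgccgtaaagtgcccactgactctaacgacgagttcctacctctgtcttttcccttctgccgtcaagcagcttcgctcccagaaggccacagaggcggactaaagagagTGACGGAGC

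Both motifs and a pair of GAAA letters set 2 bases apart, the interferon regulatory factor half-sites, were searched on both strands of every such window. TTCNNNGAA was in 7.02% of all 32851 windows. Among the 4 immune genes, Psmb8 held it, 97 to 89 bases before the start, and none of the 27 windows of constitutive subunits did. TGACNNNGC was in 10.2% of all windows and in 4 of the 27 constitutive ones, namely those of Psmb5, Psmb6, Psmc6 and Psmd12. In Psmb6 the match ended directly at the start, and in Psmb5 it lay 47 to 39 bases before it. The GAAA pair was in 2.98% of all windows, in none of the immune genes and in 2 constitutive ones, Psmb3 and Psmd4. Windows were at hand for 25 of the 31 constitutive genes, all but Psmb1, Psmb2, Psmb7, Psmc3, Psmd3 and Psmd7. These are matches of letters in 1 short window and show no binding.

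All 4 immune genes rose in the DNFB ears of both genotypes, by 2.07 to 9.83 times in wild type. Psmb8, Psmb9 and Psmb10, the inducible catalytic subunits, rose by 5.43 to 9.83 times, and Psme1, the alpha subunit of the activator, by 2.07 times. In knockout ears the same genes rose by 1.72 to 8.54 times. For scale, of all 13383 genes tested DNFB raised 19.02% and lowered 24.03% in wild type, and it raised 21.2% and lowered 24.6% in knockout (limma, Benjamini-Hochberg adjusted p under 0.05 over 29460 probe sets). In whole ears, more cells of a type and more RNA per cell cannot be told apart.

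Psmb8 is the inducible counterpart of the chymotrypsin-like subunit. Its intensities in control ears 1 to 3 were 120.4, 116.3 and 137.2 in wild type and 168.4, 158.3 and 119.2 in knockout. In DNFB ears 1 to 3 they were 1377.6, 1094.3 and 1209.5 in wild type and 1266.8, 1234.9 and 1266.5 in knockout. Every DNFB ear was thus far above every control ear, and the genotypes overlapped in both kinds of ear. The log2 fold change was 3.30 ± 0.14 (SE, 3 ears per group, adjusted p 5.49e-07) in wild type and 3.09 ± 0.14 (adjusted p 7.31e-07) in knockout. A second, dimmer probe set of Psmb8, near 16 in control ears, gave 2.16 and 1.63.

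Psmb9 replaces the caspase-like subunit. Its control ears read 87.3, 96.6 and 103.2 in wild type and 114.6, 84.5 and 97.4 in knockout. Its DNFB ears read 790.0, 687.9 and 774.2 in wild type and 815.9, 766.5 and 819.9 in knockout, again with a wide gap to the controls and overlap between genotypes. The log2 fold changes were 2.97 ± 0.12 (adjusted p 4.8e-07) and 3.03 ± 0.12 (adjusted p 5.62e-07).

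Psmb10 replaces the trypsin-like subunit. Control ears had intensities of 140.6, 128.7 and 111.8 in wild type and 172.0, 160.1 and 121.3 in knockout. DNFB ears had 777.1, 590.9 and 704.7 in wild type and 784.0, 849.5 and 702.7 in knockout. All DNFB ears exceeded all controls, and wild-type DNFB ear 2 was the lowest of the 6. The log2 fold changes were 2.44 ± 0.16 (adjusted p 4.66e-06) and 2.38 ± 0.16 (adjusted p 4.62e-06).

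Psme1 started from a clear signal and moved least of the 4. Control ears read 768.2, 823.2 and 772.6 in wild type and 895.1, 1046.0 and 1004.6 in knockout, so the knockout controls lay above the wild-type controls. DNFB ears read 1648.6, 1620.5 and 1623.2 in wild type and 1661.6, 1712.1 and 1675.8 in knockout, and again did not overlap between genotypes, though by a narrow margin. Its log2 fold change was 1.05 ± 0.08 (adjusted p 1.46e-05) in wild type and 0.78 ± 0.08 (adjusted p 7.35e-05) in knockout. The difference of the responses, knockout minus wild type, was -0.27 (95% interval -0.54 to -0.0032, adjusted p 0.799) and did not pass the threshold.

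**Figure D1:**
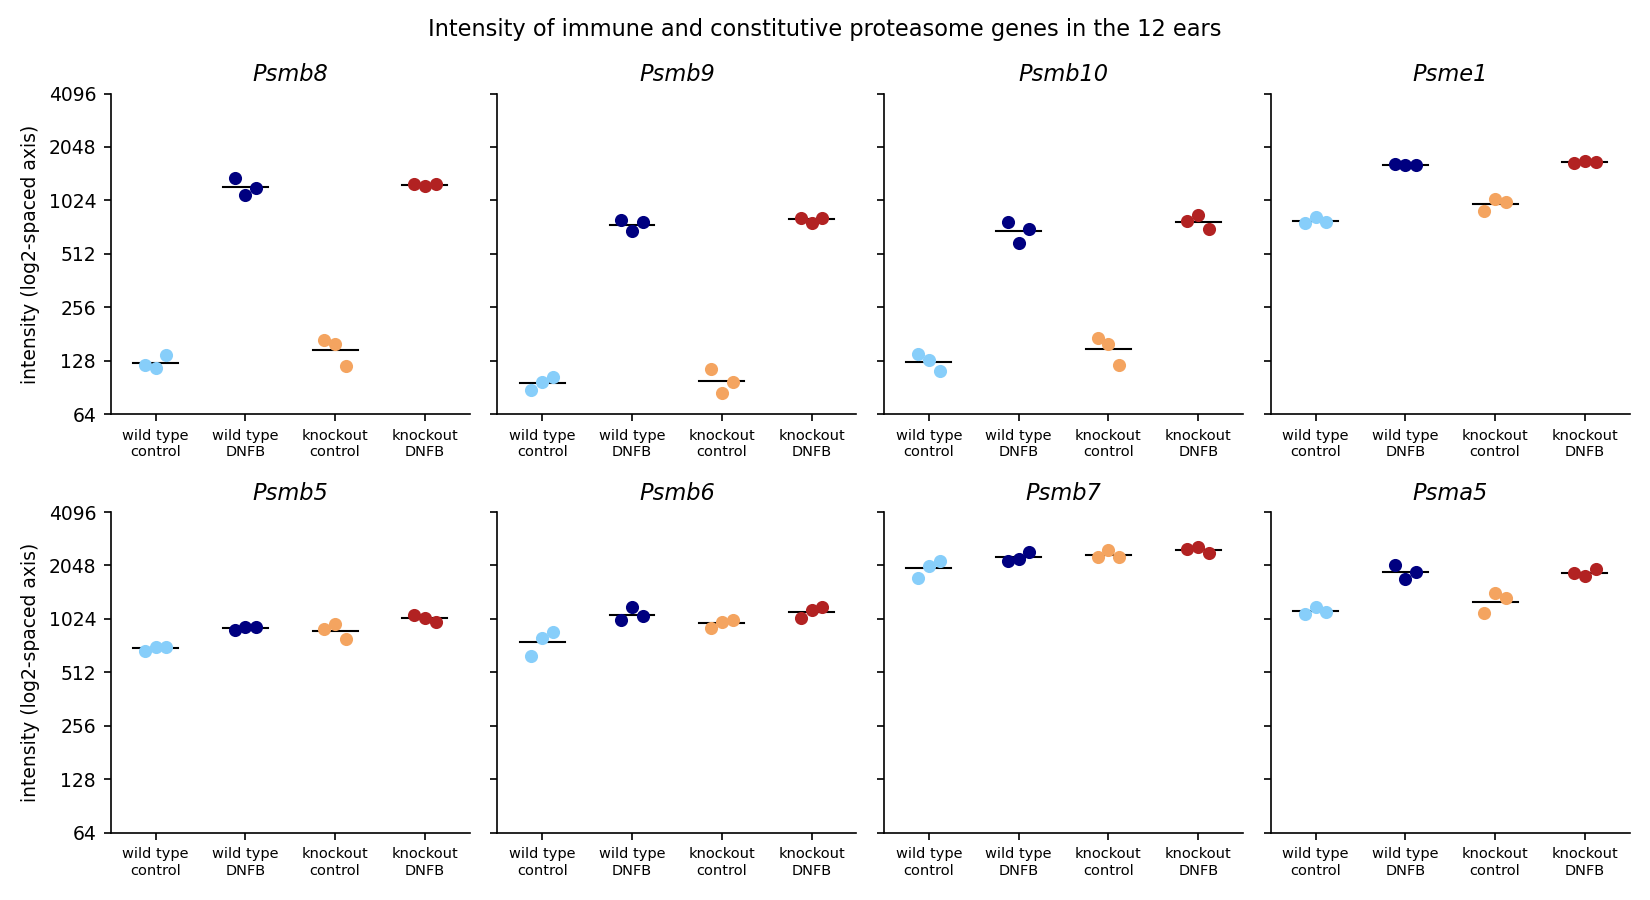
Intensity (log2-spaced vertical axis) of the 4 immune genes in the upper row and of Psmb5, Psmb6, Psmb7 and Psma5 in the lower row, with 1 point per ear and a bar at the geometric mean of each group of 3 ears. DNFB ears of Psmb8, Psmb9 and Psmb10 stand far above controls in both genotypes, while Psmb7 overlaps in each genotype.

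The constitutive catalytic subunits that the immune forms displace moved far less, and none was lower in the DNFB ears. Psmb5, the chymotrypsin-like subunit, read 677.7, 714.2 and 709.1 in wild-type control ears and 891.7, 921.1 and 922.1 in wild-type DNFB ears. In knockout ears it read 893.1, 960.8 and 791.7 in controls and 1082.7, 1031.3 and 988.3 after DNFB. The ears did not overlap in either genotype. It rose in wild type (log2 fold change 0.38 ± 0.09, adjusted p 0.00859), and the knockout value of 0.23 ± 0.09 did not pass (adjusted p 0.068).

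Psmb6, the caspase-like subunit, read 630.3, 797.7 and 869.7 in wild-type control ears and 1008.1, 1189.5 and 1062.5 in wild-type DNFB ears. In knockout ears it read 907.5, 982.1 and 1013.8 in controls and 1035.1, 1154.0 and 1194.5 after DNFB. Wild-type control ear 1 stood lowest of all. It rose in wild type (0.51 ± 0.13, adjusted p 0.0109), and the knockout value was 0.22 ± 0.13 (adjusted p 0.21). With the washing run as a block, neither Psmb5 (0.35, adjusted p 0.0864) nor Psmb6 (0.41, adjusted p 0.185) passed in wild type.

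Psmb7, the trypsin-like subunit, read 1749.1, 2033.7 and 2168.3 in wild-type control ears and 2165.9, 2231.8 and 2426.6 in wild-type DNFB ears. In knockout ears it read 2288.6, 2503.8 and 2290.3 in controls and 2529.0, 2595.9 and 2404.1 after DNFB. Control and DNFB ears overlapped in both genotypes. Its log2 fold changes of 0.20 ± 0.10 (adjusted p 0.144) and 0.09 ± 0.10 (adjusted p 0.524) did not pass the test.

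The immune and constitutive forms were then set against each other within each mouse, as the change of their log2 ratio from control to DNFB ear. A ratio of 2 probe sets shows unequal change, not the make-up of the particle. For Psmb8 over Psmb5 the ratio grew by 3.12, 2.87 and 2.76 in wild-type mice 1 to 3 and by 2.63, 2.86 and 3.09 in knockout mice 1 to 3. It grew in 6 of 6 mice, on average by 2.89 ± 0.19 (SD, n = 6), or 7.41 times. For Psmb9 over Psmb6 the growth was 2.50, 2.26 and 2.62 in wild type and 2.64, 2.95 and 2.84 in knockout, 2.63 ± 0.25 over all 6 mice (6.21 times). For Psmb10 over Psmb7 it was 2.16, 2.06 and 2.49 in wild type and 2.04, 2.36 and 2.46 in knockout, 2.26 ± 0.20 over all (4.80 times). Each of the 3 ratios had an exact two-sided sign-flip permutation p of 0.03125 over n = 6 mice, the smallest that 6 mice can give, and 0.03125 after adjustment over the 3.

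Between genotypes, the growth of the Psmb9 over Psmb6 ratio was the one that did not overlap. All 3 knockout mice exceeded all 3 wild-type mice, by 0.35 on average. The exact two-sided permutation p was 0.1, the smallest that 3 against 3 mice allow, and 0.3 after adjustment over the 3 ratios. The difference of the responses, knockout minus wild type, was 0.06 for Psmb9 and -0.29 for Psmb6. Relative to the wild-type control mean, the log2 ratio overlapped in DNFB ears (2.20 to 2.64 in wild type, 2.40 to 2.65 in knockout). It also overlapped in control ears (-0.08 to 0.14 and -0.55 to 0.01). The other genotype differences were -0.05 for Psmb8 over Psmb5 (exact permutation p 0.7) and 0.05 for Psmb10 over Psmb7 (exact permutation p 1).

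**Figure D2:**
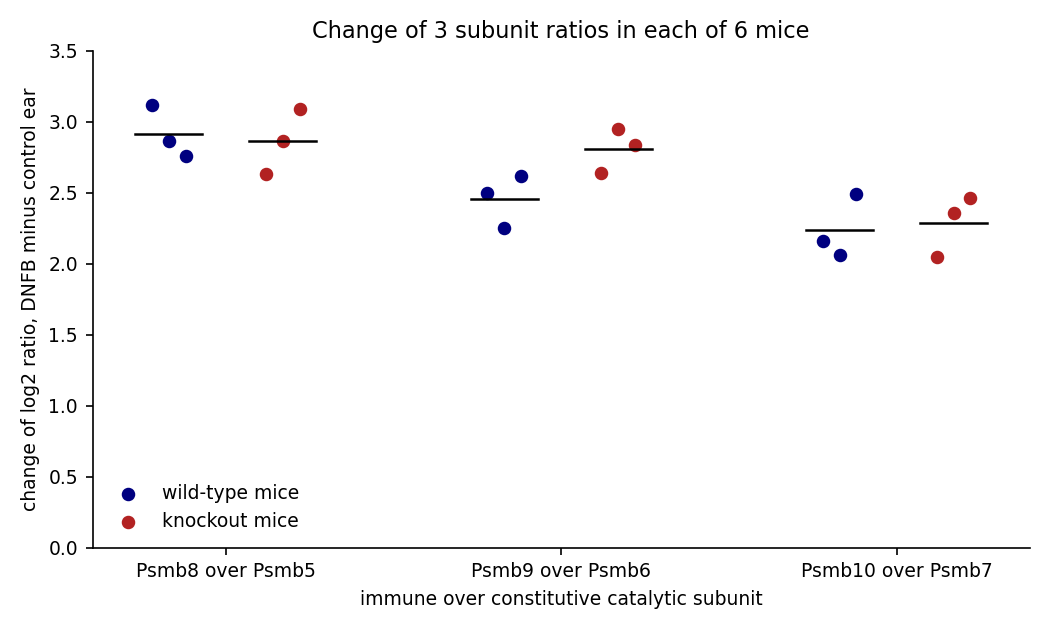
Change of the log2 ratio of an immune over a constitutive catalytic subunit from control to DNFB ear, with 1 point per mouse and a bar at the mean of the 3 mice of each genotype. All 18 changes are above 2, and the genotypes are apart only for Psmb9 over Psmb6.

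Transcripts of the constitutive particle, catalytic subunits included, rose modestly and broadly in wild-type DNFB ears. Of its 31 subunits, 20 rose and 0 fell, and the median log2 fold change was 0.35 against -0.08 over all genes tested. In knockout DNFB ears 11 rose and 0 fell, with a median of 0.23 against -0.06 over all genes. All member genes together counted 25 higher and 0 lower of 42 in wild type, and 18 higher and 0 lower in knockout, beside the 19.02% and 21.2% of all genes that were higher. Wild-type control and DNFB ears did not overlap for 28 subunits that were higher after DNFB and 1 that was lower (25.9% and 33.4% of all genes). In knockout ears this held for 19 that were higher and 1 that was lower (26.3% and 30.3% of all genes).

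The washing runs partly coincided with treatment. With the run as a block, 6 of 31 constitutive subunits rose in wild type (Psma1, Psma3, Psma5, Psma7, Psmb2 and Psmb3) and 1 in knockout (Psmb2), beside 10.8% and 11.8% of all genes, and the median log2 fold changes were 0.36 and 0.16. No other call of a constitutive subunit given here passed under it. The first median compares wild-type DNFB ear 1 with the 3 wild-type controls of its run, and the second compares the 3 knockout DNFB ears with knockout control ear 3. Whether the fewer calls come from the runs or from the single ear on 1 side was not tested. All 4 immune genes kept passing under it in both genotypes, with 3.47 and 3.40 for Psmb8, 3.05 and 3.04 for Psmb9, 2.62 and 2.68 for Psmb10, and 1.07 and 0.74 for Psme1.

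In the alpha ring, which gates the barrel, 6 of 7 subunits rose in wild type and 4 of 7 in knockout, with median log2 fold changes of 0.42 and 0.25. Psma5 had the largest log2 fold change of the 31 constitutive subunits in both genotypes. It read 1090.6, 1189.4 and 1123.0 in wild-type controls and 2064.0, 1727.9 and 1871.0 after DNFB, and 1102.1, 1424.0 and 1345.3 in knockout controls and 1848.0, 1795.2 and 1952.5 after DNFB. The ears were well apart in both genotypes, and the log2 fold changes were 0.73 ± 0.11 (adjusted p 0.00079) and 0.54 ± 0.11 (adjusted p 0.00414), the latter 0.47 (adjusted p 0.0837) with the run as a block. Its other probe set gave 0.69 and 0.60. In wild type Psma7 came next, with control ears at 785.8, 752.1 and 736.7 in wild type and 777.5, 873.2 and 887.8 in knockout. Its DNFB ears, at 1248.8, 1172.8 and 1104.9 in wild type and 1150.4, 1116.5 and 1101.2 in knockout, were all higher, with log2 fold changes of 0.63 ± 0.09 (adjusted p 0.000406) and 0.41 ± 0.09 (adjusted p 0.00448), the latter 0.34 (adjusted p 0.104) with the run as a block. Psma6 missed the threshold in both genotypes, at 0.30 and 0.23.

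Of the 4 beta-ring subunits without an active site, all 4 rose in wild type (median 0.46) and 2 in knockout (median 0.26). Psmb3 read 793.1, 834.6 and 817.7 in wild-type controls and 1261.6, 1213.0 and 1123.2 after DNFB. In knockout ears it read 911.3, 1072.1 and 995.6 in controls and 1315.0, 1268.2 and 1228.6 after DNFB. DNFB ears were above controls throughout, and the log2 fold changes were 0.56 ± 0.09 (adjusted p 0.000995) and 0.36 ± 0.09 (adjusted p 0.0103), the latter 0.35 (adjusted p 0.116) with the run as a block. Psmb2 was the other that rose in both, by 0.54 and 0.44. Counting the catalytic subunits, 12 of the 14 core-particle genes rose in wild type and 6 in knockout.

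The regulator, which recognises and unfolds substrates, had 8 of 17 subunits higher in wild type and 5 in knockout, with median log2 fold changes of 0.31 and 0.24. Among its 6 ATPases, 3 rose in each genotype, and Psmc2 and Psmc3 were in both counts. Psmc4 passed in wild type alone (0.52, against 0.28 in knockout), and Psmc6 in knockout alone (0.33, against 0.31 in wild type), though the values of Psmc6 were nearly equal. Among its 11 non-ATPases, 5 rose in wild type and 2 in knockout. Of all genes 19.02% and 21.2% rose, so the knockout count of non-ATPases was not above that share. Psmd2, a scaffold of the base, rose in both by 0.41 and 0.28, as did the ubiquitin receptor Psmd4 by 0.36 and 0.30. With the mouse as a replicate block, the knockout calls of Psmc6 (adjusted p 0.0854) and Psmd2 (adjusted p 0.0547) did not pass. The deubiquitinase Psmd14, which strips the tag from the substrate, missed the threshold at 0.29 and 0.06.

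The lowest 3 of the constitutive subunits in wild type were all non-ATPases. Psmd8 was the only one of the 31 with a lower mean after DNFB. It read 1141.7, 1243.9 and 1186.5 in wild-type controls and 1080.2, 1119.2 and 1078.3 after DNFB, and 1289.6, 1447.8 and 1371.4 in knockout controls and 1207.2, 1210.5 and 1141.1 after DNFB. Control and DNFB ears did not overlap in either genotype, but its log2 fold changes of -0.12 ± 0.08 (adjusted p 0.263) and -0.21 ± 0.08 (adjusted p 0.0708) did not pass. Centring each array on its median moved the wild-type value to 0.02, and quantile normalization moved both past the threshold (-0.27 and -0.30). Psmd1, a large base subunit, read 717.6, 739.2 and 723.9 in wild-type controls and 821.8, 871.6 and 795.0 after DNFB, and 841.1, 898.7 and 803.2 in knockout controls and 944.1, 985.9 and 832.7 after DNFB. The ears were apart in wild type and overlapped in knockout, with log2 fold changes of 0.19 ± 0.09 (adjusted p 0.132) and 0.12 ± 0.09 (adjusted p 0.346). Psmd13 varied most between ears, from 311.2 to 385.6 and from 368.7 to 478.3 in wild-type control and DNFB ears and from 277.8 to 435.7 and from 405.2 to 512.9 in knockout ears, and its values of 0.19 ± 0.19 and 0.27 ± 0.19 did not pass.

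**Figure D3:**
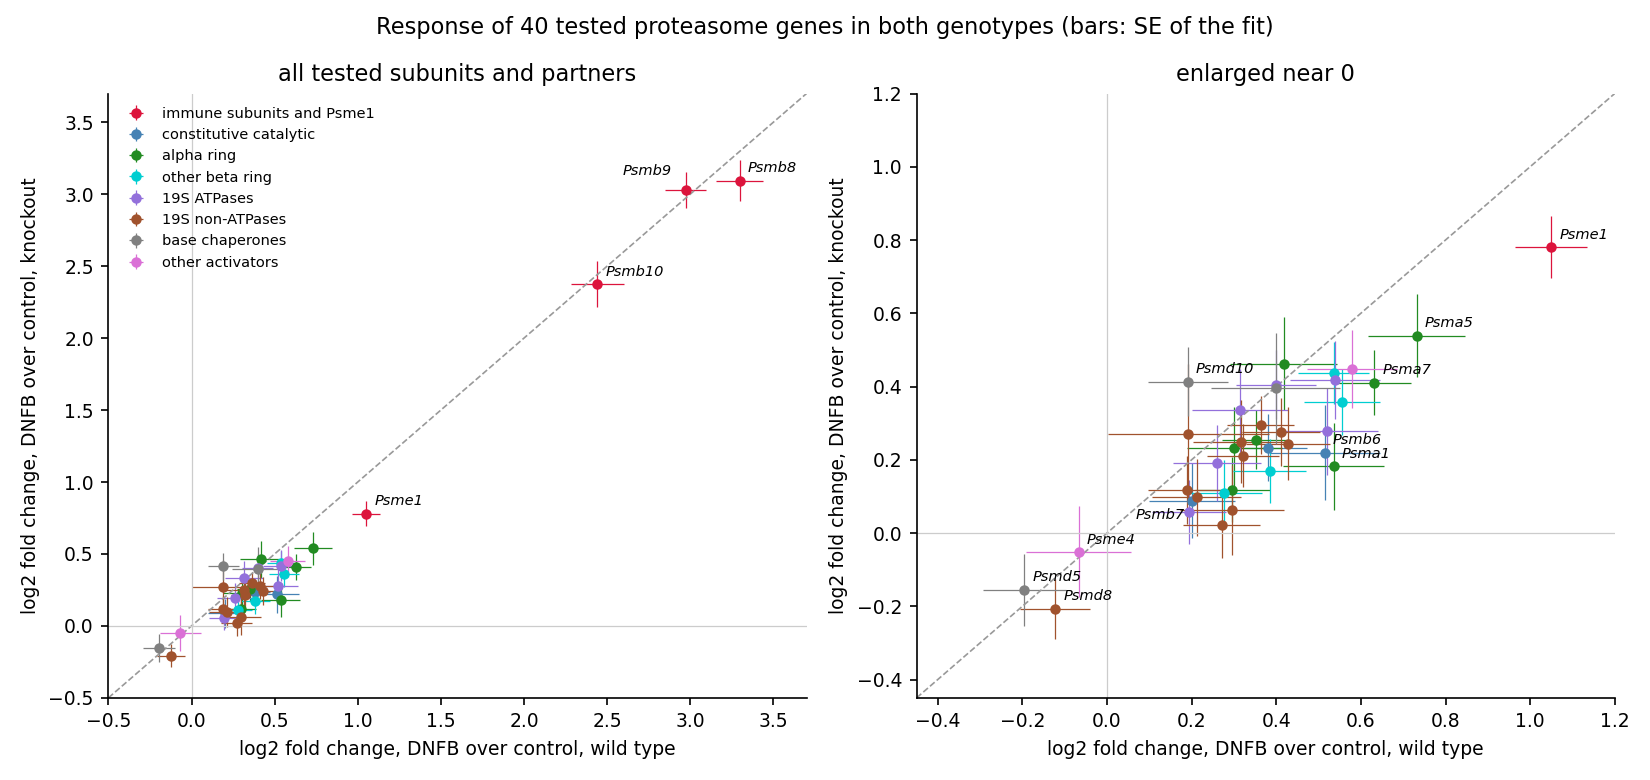
Log2 fold change from control to DNFB ears in wild type (horizontal) and knockout (vertical) for every tested subunit, base chaperone and activator, coloured by role, with bars of 1 SE. The dashed line marks equal change, and the right panel enlarges the small values, where the alpha-ring gene Psma5 (0.73 and 0.54) lies highest among constitutive subunits.

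Partners of the particle within the gene family were less uniform. Psme3, which forms an activator cap of its own in the nucleus, read 146.0, 166.1 and 156.3 in wild-type controls and 238.1, 252.8 and 209.8 after DNFB, and 174.9, 169.0 and 180.6 in knockout controls and 243.6, 259.3 and 214.5 after DNFB. It rose in both, by 0.58 ± 0.11 (adjusted p 0.00202) and 0.45 ± 0.11 (adjusted p 0.00768), but with the run as a block the knockout value of 0.40 did not pass (adjusted p 0.134). The activator gene Psme4 read 745.5, 854.3 and 959.9 in wild-type controls and 761.4, 935.5 and 746.5 after DNFB, and 788.4, 715.4 and 756.0 in knockout controls and 767.5, 738.5 and 675.8 after DNFB. It overlapped in both genotypes, with values of -0.07 ± 0.12 and -0.05 ± 0.12 (adjusted p 0.7 and 0.773). Of the 3 chaperones that assemble the ATPase ring, Psmd5, Psmd9 and Psmd10, none passed in wild type, and Psmd10 rose in knockout (0.41 ± 0.09, adjusted p 0.00623, against 0.19 in wild type). With the run as a block, the knockout value of Psmd10 was 0.43 and did not pass. Of the genes matched by name alone, Psmc3ip rose in knockout (0.95 ± 0.18, adjusted p 0.00218) and gave 0.41 in wild type (adjusted p 0.0976), and Psme3ip1 gave 0.01 and -0.05.

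Where a gene had several probe sets, the brightest was used. At the level of probe sets, 37 of the 79 tested were higher and 2 lower in wild type (15.2% and 22.8% of all probe sets), and 25 were higher and 2 lower in knockout (17.04% and 22.00%). The 3 called lower in either genotype were 1 of Psmd9 and 2 of Psme4, and all 3 had a mean intensity below 100. Dimmer probe sets of Psmc2, Psmd4 and Psmd13 also had a sign opposite to the brightest one in wild type.

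The constitutive subunits were compared between genotypes within each kind of ear. No member passed in either. In control ears they tended to lie higher in knockout, with 27 of 31 above and a median difference of 0.16, against -0.00086 over all genes. Before adjustment 10 of the 31 had p under 0.05 in that direction and 0 in the other (4.56% and 5.24% of all genes), and the smallest adjusted p was 0.226 (limma). For 15 of the 31 all knockout controls exceeded all wild-type controls, and for 0 the reverse was true (9.35% and 8.79% of all genes). The adjusted test called 0.0822% of all genes higher and 0.0672% lower. The 3 catalytic subunits were among the 15, with differences of 0.33 for Psmb5 (95% interval 0.12 to 0.53), 0.35 for Psmb6 (0.06 to 0.64) and 0.26 for Psmb7 (0.03 to 0.48). The inducible subunits gave 0.24 for Psmb8 (-0.07 to 0.56), 0.04 for Psmb9 (-0.24 to 0.31) and 0.24 for Psmb10 (-0.12 to 0.60). Psme1 gave 0.31 (0.13 to 0.50), with the smallest adjusted p of the 42 tested members (limma, 0.225). All 4 immune genes thus had a higher mean in knockout controls, with a median of 0.24. The tendency was therefore not particular to the constitutive subunits.

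Other measures differed between the same control ears. The log2 ratio of 3′ to 5′ probe sets of Actb, a sign of RNA integrity, was 0.61 to 0.73 in wild-type and 0.46 to 0.50 in knockout control ears. That of Gapdh was -0.47 to -0.31 and -0.43 to -0.32, which overlap. The wild-type controls were all washed in run 1 and the knockout controls in runs 2 and 3. The summed intensity of 10 leukocyte markers was 2430 to 2631 in wild-type and 2706 to 2847 in knockout controls, and that of 6 markers of dividing cells was 732 to 837 and 396 to 685. The part of these in the higher constitutive levels was not tested. No run held control ears of both genotypes. A fit with the run as a block therefore links them through the wild-type DNFB ears, of which only ear 1 was in run 1. Its median difference over the 31 was 0.16, which is not a comparison of control ears within a run.

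In DNFB ears the constitutive levels of the genotypes overlapped. The median difference over the 31 subunits was 0.04, with 20 above and 11 below, and 0 members passed the adjusted test (0.0299% of all genes were higher and 0.0374% lower). Before adjustment 1 member, Psmb2, had p under 0.05 (0.21, 95% interval 0.02 to 0.39), against 4.79% of all genes higher and 4.96% lower. The genotypes did not overlap for 5 subunits that were higher and 2 that were lower in knockout (8.96% and 6.94% of all genes). For the inducible subunits the differences were 0.04 for Psmb8 (-0.28 to 0.35), 0.10 for Psmb9 (-0.18 to 0.37) and 0.18 for Psmb10 (-0.18 to 0.53).

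**Figure D4:**
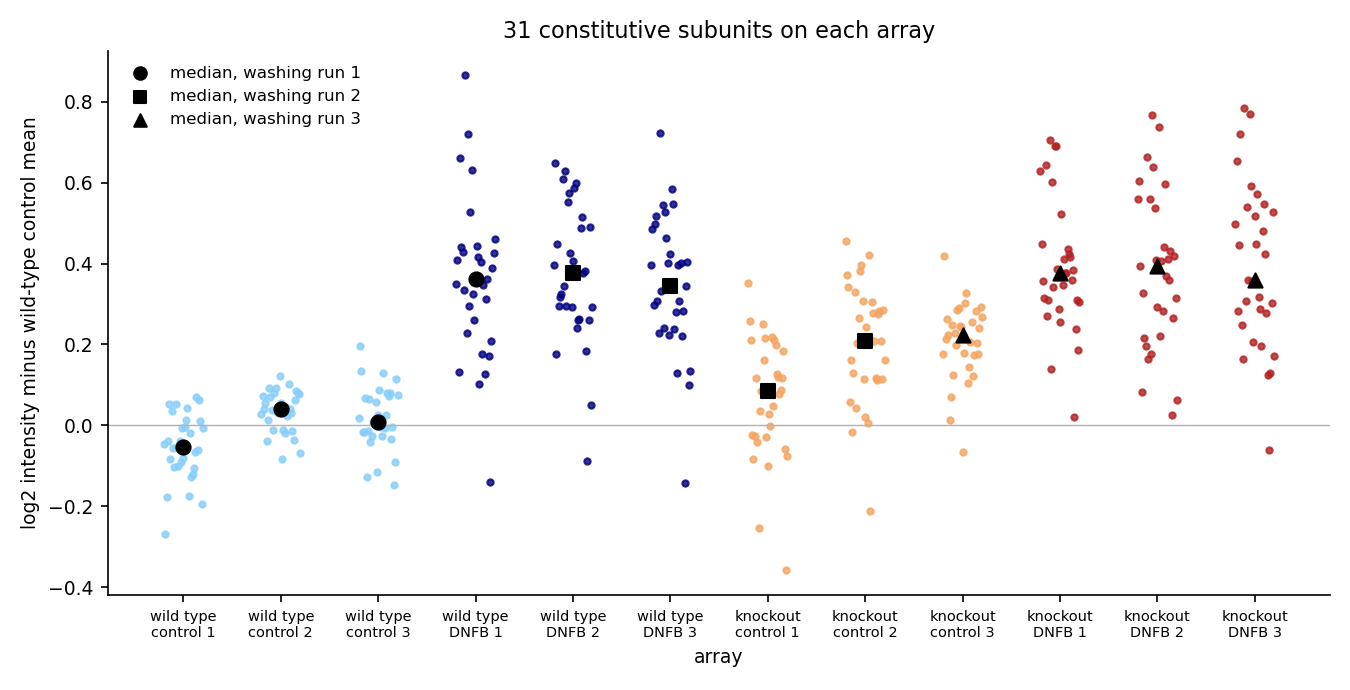
Log2 intensity of the 31 constitutive subunits on each of the 12 arrays, minus each gene's mean over the 3 wild-type control ears. Small points are genes, and the black symbol is their median, shaped by washing run. Medians are -0.05 to 0.04 in wild-type controls, 0.09 to 0.22 in knockout controls and 0.34 to 0.39 in all 6 DNFB ears.

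The response was smaller in knockout than in wild type for 27 of the 31 constitutive subunits, against 46.8% of all genes. For each gene this difference equals the genotype difference in DNFB ears minus that in control ears (medians 0.04 and 0.16). It is therefore not a separate result from the control-ear difference above, and it shares control ears whose washing runs and Actb ratios differed. The median difference of the responses was -0.12, and no member passed (smallest adjusted p 0.809 among the 31). Before adjustment 0 of the 31 had p under 0.05 in either direction (3.39% of all genes were lower and 2.90% higher), and the adjusted test called 0.00747% of all genes lower and 0 higher. Mouse by mouse, the median change over the 31 was 0.41, 0.35 and 0.34 in wild type and 0.30, 0.22 and 0.18 in knockout. In the plot of constitutive subunits by array, the medians of the genotypes overlapped in DNFB ears and did not in control ears. For the inducible subunits the difference of the responses was -0.20 for Psmb8 (95% interval -0.65 to 0.24), 0.06 for Psmb9 (-0.33 to 0.45) and -0.06 for Psmb10 (-0.57 to 0.44).

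Other genes of the pathway were read from lists. Of all genes, 19.02% were higher and 24.03% lower in wild type, and 21.2% and 24.6% in knockout. Of 13 tested genes that assemble or attend the particle, 6 rose and 0 fell in wild type, and 6 rose and 1 fell in knockout. Pomp, the chaperone that matures the core and is consumed by it, rose from 778.6, 838.4 and 877.3 to 1403.2, 1358.2 and 1396.8 in wild-type ears and from 898.8, 921.8 and 969.4 to 1344.4, 1309.1 and 1376.3 in knockout ears. Its log2 fold changes were 0.74 ± 0.08 (adjusted p 9.02e-05) and 0.53 ± 0.08 (adjusted p 0.000585). The deubiquitinases of the regulator, Usp14 (0.45 and 0.33) and Uchl5 (0.42 and 0.58), rose in both, and the regulator-bound thioredoxin Txnl1 in wild type (0.39, against 0.22). Ecpas, an adaptor of the particle, was the one that fell in knockout (-0.46, adjusted p 0.00564, against -0.28 in wild type), and it is named after its value was seen.

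Among 7 tested genes that bring substrates, Rad23b, a ubiquitin shuttle, rose in both genotypes (0.65 and 0.38), and the shuttle Ubqln1 fell in knockout (-0.37, against -0.20). No other of the 7 passed, so the list was not above the 19.02% and 21.2% of all genes that rose or the 24.03% and 24.6% that fell. The transcription factors split. Irf1 (1.86 and 2.08) and Nlrc5 (1.58 and 1.67), which are known to induce immunoproteasome and class I genes, rose in both, as did the stress factor Nfe2l2 (0.95 and 1.05). Nfe2l1, known for raising constitutive proteasome genes when the particle is inhibited, fell from 587.1, 666.9 and 637.7 to 325.3, 343.5 and 376.7 in wild-type ears and from 666.6, 660.4 and 614.0 to 331.7, 308.0 and 328.9 in knockout ears. That was -0.86 ± 0.09 (adjusted p 8.29e-05) and -1.003 ± 0.09 (adjusted p 2.72e-05). These are transcript levels, and the part of Nfe2l1 in the constitutive values was not tested. In all, 3 of 5 tested factors rose and 1 fell in each genotype.

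Class I peptide handling rose with the immune subunits, in 8 of 9 genes in each genotype, beside 19.02% and 21.2% of all genes. The peptide trimming enzyme Erap1 (2.15 and 1.68), the peptide transporter genes Tap1 (1.95 and 2.14) and Tap2 (1.54 and 1.45) and the loading factor Tapbp (1.46 and 1.13) had the largest wild-type changes. Ifng, the interferon gamma gene, was below 16 in all control ears and read 28.3 to 29.4 in wild-type and 17.6 to 24.2 in knockout DNFB ears, at least 1.81-fold and 1.33-fold higher when the controls are set at that floor of 16.

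Transcripts that mark cell types moved with all of these, and cell numbers were not measured. All 10 leukocyte markers rose in both genotypes (median log2 fold changes 2.24 and 2.25), and their summed intensity reached 10278 to 13315 in wild-type and 11344 to 14552 in knockout DNFB ears. All 6 markers of dividing cells rose as well (2.24 and 2.79). Of 7 keratinocyte markers 1 rose and 1 fell in wild type, and 3 rose and 2 fell in knockout. For all genes the shares were 19.02% higher and 24.03% lower in wild type, and 21.2% and 24.6% in knockout. Of 6 fibroblast markers 3 fell in both, of 6 muscle markers 5 fell in both, and of 4 cartilage markers 3 fell in both. The 3′ to 5′ log2 ratio of Actb was 0.61 to 0.73 in control and 0.47 to 0.62 in DNFB ears of wild type, and 0.46 to 0.50 and 0.41 to 0.42 in those of knockout, while that of Gapdh overlapped in both genotypes (-0.36 to -0.32 and -0.39 to -0.29 in DNFB ears). The part of these shifts in the proteasome values was not tested.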

How the data were processed

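The authors deposited 1 linear intensity per probe set and array, made with GCRMA per the submitters' processing notes; its version and settings are not given in the sources used here. Washing runs were inferred here from deposited instrument records (unit other, no expression values), with a new run after a gap of 30 minutes between hybridization times. Values were turned into log2 here with no pseudocount. Of 45101 probe sets, 64 are controls and 29460 passed an intensity of 16 on 3 of 12 arrays. Limma 3.58.1 in R 4.3.3 (lmFit, eBayes) was fitted with 1 coefficient per group, and p-values were adjusted over all probe sets tested. A gene took its brightest single-symbol probe set, and symbols came from the platform annotation. The 5 comparisons were the 2 responses, their difference, and the genotypes in each kind of ear.

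The members and lists were chosen with earlier results of these data known. Named with values were the immune genes and counterparts, the 3 highest and 3 lowest constitutive subunits in wild type, the other activators, and up to 4 genes per pathway list by largest wild-type change, with Ifng, Cnr1 and Cnr2. Other members are named within their role groups.

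Both ears of a mouse share its number in the labels, so the numbers pair them; same-mouse deviations from the group means correlated at -0.0043 to 0.080. In simulated data the fit recovered 7.46% of wild-type responses of log2 0.5, 61.2% of log2 1 and 81.8% of log2 2 (67, 67 and 66 probe sets changed), with 2 false calls among 29460 probe sets. The changed probe sets were drawn at random from all those tested. They were far fewer than the 4485 higher and 6726 lower called in the real wild-type response. The recovery rates therefore do not give the power for the members here. The number of arrays limits the precision.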

Additional observations from a re-analysis of the deposited data

How the results depend on the processing

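Alternatives were a different filter, variance model, scaling, pseudocount, block or choice of probe set, and leaving out each array. The 4 immune genes passed in both genotypes under all 21, with log2 fold changes of 2.73 to 3.47 for Psmb8, 2.78 to 3.11 for Psmb9, 2.30 to 2.62 for Psmb10 and 0.92 to 1.19 for Psme1 in wild type. With the washing run as a block, members called fell from 25 to 11 in wild type and from 18 to 6 in knockout, beside 10.8% and 11.8% of all genes higher; each response then rests on a single ear on 1 side, and Psma5, Psma7, Psmb3 and Psme3 no longer passed in knockout (adjusted p 0.0837 to 0.134). Psmd10 also no longer passed in knockout with the washing run as a block. Under the remaining alternatives other than left-out arrays, 21 to 37 members passed in wild type and 15 to 24 in knockout, where 15.8% to 25.5% and 17.6% to 27.2% of all genes were higher. These member counts take both directions together, with at most 1 member lower under any alternative. The highest wild-type count, 37 with 29 constitutive subunits, came from centring each array on its median, where 24.02% of all genes were higher and which moved the median over all probe sets from -0.14 to 0.01; the lowest constitutive count among these was 13, under quantile normalization. Leaving out 1 array gave 22 to 26 members in wild type and 14 to 18 in knockout. Of all genes, 16.1% to 19.3% in wild type and 18.1% to 20.7% in knockout were then higher. Constitutive calls in knockout fell from 11 to 7 without knockout control ear 1 or knockout DNFB ear 3. In these fits 19.1% and 18.1% of all genes were higher in knockout. The mouse as a replicate block gave 21 and 15 members (16 and 8 constitutive) beside 17.2% and 19.2% of all genes higher; Psma2, Psmb1, Psmd6 and Psmd11 in wild type (adjusted p 0.0531 to 0.102) and Psma3, Psmc6 and Psmd2 in knockout (0.0547 to 0.0917) no longer passed. In knockout, Psmd8 was called lower under the stricter filter, the trend model, quantile normalization and the mean over probe sets. No member passed a genotype comparison or the difference of the responses under any alternative. Without 1 mouse the ratio changes were 2.84 to 2.94 for Psmb8 over Psmb5, 2.57 to 2.71 for Psmb9 over Psmb6 and 2.22 to 2.31 for Psmb10 over Psmb7, all with an exact permutation p of 0.0625, the smallest that 5 mice can give. The causes of these shifts were not tested.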
